A study of Mus musculus with 32 samples.

Results

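The contractile genes of slow muscle fibres were followed through the day in mouse gastrocnemius, a calf muscle. The set holds 10 genes chosen by symbol, namely Myh7, Myl2, Myl3, Tnnt1, Tnnc1, Tnni1, Tpm3, Atp2a2, Casq2 and Myoz2, out of 16634 genes in the deposited table. Each symbol matched 1 entry. All 10 were tested, and no library listed any of them at exactly 0.

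Slow, or type I, fibres contract slowly and resist fatigue, and they build their sarcomeres from a set of protein isoforms that differs from that of fast fibres. Calcium released from the sarcoplasmic reticulum binds troponin on the thin filament, tropomyosin moves aside, and myosin heads pull on actin until a calcium pump takes the calcium back up. Nearly every step has a slow isoform with a fast counterpart, and most of the slow isoforms are also made in heart muscle. Gastrocnemius is built mainly of fast fibres, so its slow isoforms are a minor share.

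The mutant mice carried an Sf1-Cre transgene together with Sirt1loxP/loxP alleles, and the series asks how SIRT1, a deacetylase, acts in SF1 neurons on daily gene expression in muscle. The control mice are given floxed Sirt1 without Cre in the series description and only the name Control in the labels, so effects of the transgene and of the lost Sirt1 cannot be told apart. All mice were 10 weeks old and of mixed genetic background. Muscle was taken at Zeitgeber time (ZT, hours after lights on) 0, 6, 12 and 18, which gives 4 mutant and 4 control groups with 4 libraries in each, 16 mutant and 16 control libraries in all. The Sf1 promoter directs Cre to cells outside the muscle, and the deletion itself was not measured in these RNA samples. Libraries are named below by genotype, time and the column number 0 to 3, which does not identify the mouse.

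RNA levels are given as FPKM, fragments scaled to transcript length and to the mapped fragments of the library, so levels can be compared between genes per length. Library totals ran from 449080 to 550453 FPKM in mutants and from 432603 to 556519 FPKM in controls. Relative depth, read from the steps between low values, was 1.03 ± 0.156 in mutants and 0.992 ± 0.151 in controls (SD, n = 16 each). The absolute number of reads is unknown. In 3 mutant libraries Tnnt3, the troponin T gene of fast fibres, lay far below its level elsewhere. It had 569 FPKM in ZT0 library 2, 5678 FPKM in ZT12 library 0 and 2812 FPKM in ZT12 library 1, and at least 15220 FPKM in every other library. ZT0 library 2 and ZT12 library 1 also had the lowest median correlations with the other libraries, 0.956 and 0.954, where the highest was 0.979. Genotype counts of the members, counts of correlated pairs and slow shares are given below with and without these 3. For the other gene lists this was done in part.

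The regulatory light chain gene Myl2 had the highest level among the 10 genes and the calsequestrin gene Casq2 the lowest. Over the 32 libraries Myl2 averaged 450 ± 136 FPKM, Myl3 244 ± 81.0 FPKM, Tpm3 189 ± 69.1 FPKM and Tnnc1 175 ± 67.2 FPKM (SD). Myoz2 followed at 154 ± 31.5 FPKM, Tnnt1 at 121 ± 47.4 FPKM, Atp2a2 at 102 ± 25.4 FPKM, Tnni1 at 62.1 ± 25.8 FPKM, Myh7 at 61.1 ± 23.3 FPKM and Casq2 at 9.99 ± 2.72 FPKM. Tpm3 and Tnnc1, neighbours in this order, lay closer together than 1 SD of either, as did Tnni1 and Myh7, while Myl2 and Myl3, Atp2a2 and Tnni1, and Myh7 and Casq2 lay farther apart than that. Myl2 ranked 107 among the 11975 genes tested by mean level and Casq2 ranked 4903.

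Against its fast counterpart each slow isoform was the minor one, as the slow share of the summed FPKM of the pair shows. Myh7, the slow myosin heavy chain, made up 14.1 ± 5.31% of the sum of Myh7 and Myh2 in mutants and 15.7 ± 4.54% in controls (SD, n = 16 each). Myh2 encodes the heavy chain of type IIa fibres, which are not the main fast fibres of gastrocnemius, so this share is no share of all myosin. The Z-disc gene Myoz2 made up 6.93 ± 1.21% of its pair with Myoz1 in mutants and 7.45 ± 1.41% in controls. The other shares were lower. Myl3 against Myl1 was at 4.35 ± 1.63% in mutants and 4.94 ± 1.75% in controls, and Myl2 against Mylpf at 3.19 ± 1.01% in mutants and 3.73 ± 1.03% in controls. Tpm3 against Tpm1 was at 1.06 ± 0.333% in mutants and 1.37 ± 0.419% in controls, and Tnnc1 against Tnnc2 at 1.04 ± 0.512% in mutants and 1.14 ± 0.347% in controls. The lowest shares belonged to Casq2 against Casq1, with 0.468 ± 0.106% in mutants and 0.518 ± 0.107% in controls, and to Tnni1 against Tnni2, with 0.386 ± 0.293% in mutants and 0.364 ± 0.120% in controls. In all of these pairs the genotypes differed by less than 1 SD, and no test was run on the shares. In the 3 libraries low in Tnnt3, Tnni2 was also low, with 7939 FPKM in mutant ZT0 library 2, 11751 FPKM in mutant ZT12 library 0 and 6913 FPKM in mutant ZT12 library 1. Without the 3, the difference in the Tnni1 share, averaged over times as mutant minus control, was -0.11 percentage points, against 0.023 with them. Without them it was -3.25 points for Myh7 (-1.54 with them), -1.18 for Myl3 (-0.585 with them) and -0.298 for Tnnc1 (-0.100 with them). It was -0.898 for Myoz2 (-0.52 with them), -0.756 for Myl2 (-0.537), -0.362 for Tpm3 (-0.31) and -0.071 for Casq2 (-0.050). The 3 are all mutant, were chosen by a low fast gene and include ZT12 library 0, the highest of its group in all 10 members. A fall of these differences was thus favoured by the choice and is no result about genotype.

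The share of Tnnt1 in its pair with Tnnt3 was spread widely in mutants, from 0.200% to 4.38% with a median of 0.591%, against 0.301% to 1.04% with a median of 0.625% in controls. The top of the mutant range is ZT0 library 2, in which Tnnt3 was low and Tnnt1, at 26.1 FPKM, was the lowest of all 32 libraries. Averaged over times, the Tnnt1 share differed by 0.359 percentage points, mutant minus control, with all libraries and by -0.149 points without the 3 libraries low in Tnnt3. Those 3 are all mutant and were chosen by low Tnnt3, so a fall of this difference was fixed in advance. Atp2a1, the fast calcium pump gene, is listed at 0 in 17 libraries. In the 8 mutant and 7 control libraries that list both pumps above 0, the share of Atp2a2 averaged 0.937 ± 0.261% in mutants and 0.968 ± 0.213% in controls (SD). Averaged over times, its difference was 0.0056 points with all of these libraries and -0.095 points without those low in Tnnt3.

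Promoter sequence from RefSeq (GRCm38.p6), 250 bases ending just before the transcription start, was found for 9 of the 10 genes; Atp2a2 had no entry. The windows were searched on both strands for the E-box CANNTG, which myogenic bHLH factors bind, for the MCAT element CATTCC of TEAD factors, for the TATA box TATAAA, for the MEF2 motif, and for the CArG motif of serum response factor. An E-box was present in all 9 windows, and in 66.2% of 32851 promoter windows of the same length. MCAT was present in 2 of the 9, Myl3 and Tnnc1, and in 12.6% of all windows. A MEF2 motif was present in Casq2 and Myoz2 alone among the 9, and in 2.92% of all windows. CArG was present in Myl3 and in 1.47% of all windows, and TATAAA in Tnnt1 and Myl2 and in 12.4% of all windows. No match overlapped a match of another motif. The window of Myl2 lies 7791 bases from the start of its entry in the deposited table and is not shown. The 5 windows below belong to Tnnt1, which had the largest genotype difference at ZT12, to Tnnc1 and Myl3, which hold MCAT, and to Casq2 and Myoz2, whose levels followed the other members least. Capitals mark MCAT, TATAAA, MEF2 and CArG matches, on either strand, and each sequence runs 5′ to 3′ towards the start.
Tnnt1, chr7:4515976-4516225, minus strand: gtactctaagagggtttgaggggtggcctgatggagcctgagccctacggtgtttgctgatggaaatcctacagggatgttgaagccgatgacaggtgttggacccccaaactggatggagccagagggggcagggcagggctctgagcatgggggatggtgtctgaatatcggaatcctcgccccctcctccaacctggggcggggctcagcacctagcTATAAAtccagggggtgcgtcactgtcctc
Tnnc1, chr14:31208062-31208311, plus strand: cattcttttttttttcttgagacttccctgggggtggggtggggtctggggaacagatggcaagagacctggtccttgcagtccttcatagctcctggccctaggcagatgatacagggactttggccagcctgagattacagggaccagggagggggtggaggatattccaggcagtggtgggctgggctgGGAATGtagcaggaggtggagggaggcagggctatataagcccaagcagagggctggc
Myl3, chr9:110763428-110763677, plus strand: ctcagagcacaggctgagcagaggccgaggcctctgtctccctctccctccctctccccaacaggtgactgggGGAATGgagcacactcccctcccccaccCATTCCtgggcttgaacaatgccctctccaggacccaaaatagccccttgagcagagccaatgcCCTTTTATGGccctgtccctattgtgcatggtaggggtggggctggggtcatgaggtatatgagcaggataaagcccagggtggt
Casq2, chr3:102086165-102086414, plus strand: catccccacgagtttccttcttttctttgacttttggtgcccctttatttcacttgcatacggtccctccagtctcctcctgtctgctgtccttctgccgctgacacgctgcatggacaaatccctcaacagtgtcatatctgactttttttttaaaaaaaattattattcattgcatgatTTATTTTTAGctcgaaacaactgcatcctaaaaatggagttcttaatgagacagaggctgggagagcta
Myoz2, chr3:123034988-123035237, minus strand: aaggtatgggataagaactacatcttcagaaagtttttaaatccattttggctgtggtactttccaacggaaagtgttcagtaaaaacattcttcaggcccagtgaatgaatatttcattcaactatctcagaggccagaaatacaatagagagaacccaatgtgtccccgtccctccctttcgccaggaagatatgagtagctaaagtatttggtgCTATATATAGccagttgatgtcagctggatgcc
A match is a run of letters and shows no binding. The first base of the TATAAA match in Tnnt1 lies 30 bases before the start, and that of the single MCAT match in Tnnc1 lies 58 bases before it. Myl3 has MCAT matches that begin 177 and 149 bases before the start and a CArG match that begins 85 bases before it. The MEF2 matches begin 69 bases before the start in Casq2 and 33 bases before it in Myoz2.

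Averaged over the day, each of the 10 genes had a lower mean in mutants than in controls, but none passed the test. Differences were estimated with limma on log2(FPKM + 1), a scale on which the change of low genes is understated, and called at a Benjamini-Hochberg adjusted p under 0.05 over all 11975 genes tested. By that rule 0 of the 10 were called, where 0.0251% of all genes tested were called. At an unadjusted p under 0.05, 6 of the 10 were lower in mutants and 0 higher, where 3.16% of all genes were lower at that level. The members varied together between libraries (median r of 0.69 between pairs, below). Counts of members, here and at single times, are therefore not counts of independent genes. The median log2 difference, mutant minus control, was -0.30 over the 10 genes and 0.0023 over all genes tested. Adjusted p ran from 0.756 to 0.830. In whole muscle, fewer slow fibres and less RNA per slow fibre cannot be told apart.

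**Figure D1:**
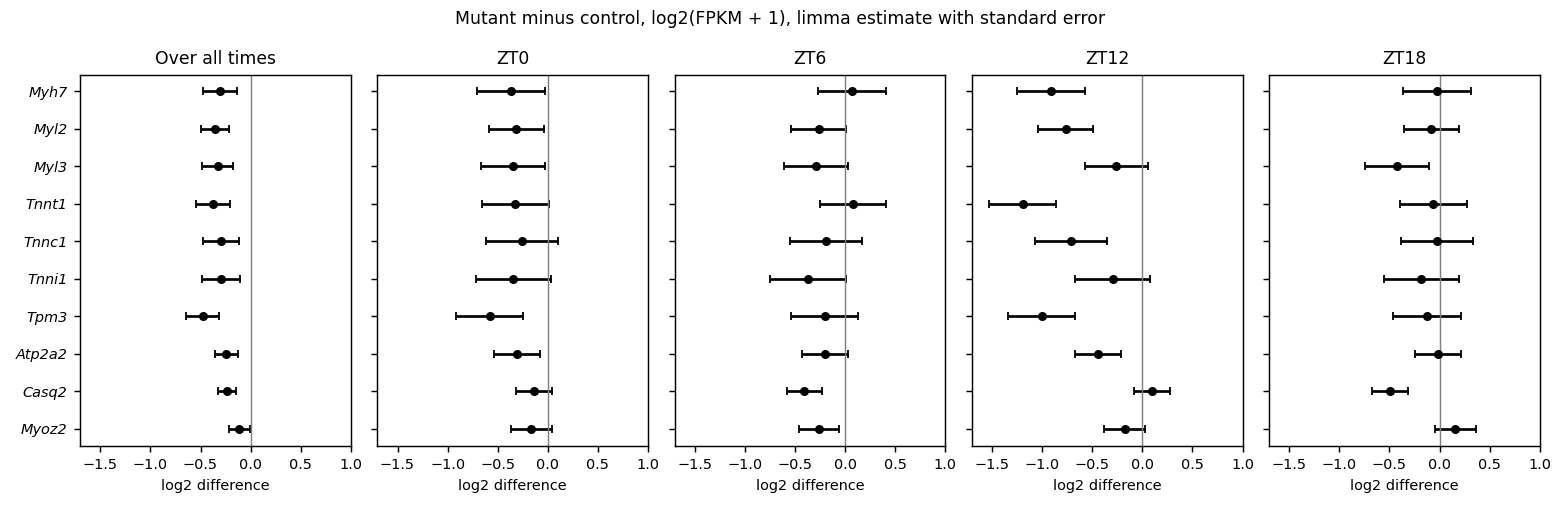
Log2 difference between genotypes (mutant minus control, log2(FPKM + 1), x axis) for each of the 10 genes (rows), over all times and at each Zeitgeber time; points are limma estimates and bars their standard errors. All 10 points lie left of 0 over all times, and the farthest is Tnnt1 at ZT12 with -1.19.

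The myosin genes come first among the members. Myh7 (chromosome 14, 54968787 to 54994549 in mm10) encodes the heavy chain that pulls on actin in slow fibres and in the ventricle of the heart. It ranged from 18.7 to 93.6 FPKM with a median of 56.7 FPKM in mutants, and from 23.2 to 113 FPKM with a median of 72.0 FPKM in controls. The 2 ranges overlapped over most of their length, and the log2 difference was -0.31 (SE 0.17, limma adjusted p = 0.758). Myl2 (chromosome 5, 122100980 to 122106854), the regulatory light chain, ranged from 178 to 623 FPKM with a median of 376 FPKM in mutants, and from 326 to 843 FPKM with a median of 474 FPKM in controls. The lowest mutant libraries lay below every control library, and the log2 difference was -0.36 (SE 0.138, limma adjusted p = 0.756, unadjusted p = 0.0154). Myl3 (chromosome 9, 110763681 to 110769794), the essential light chain, ranged from 116 to 507 FPKM with a median of 198 FPKM in mutants, and from 154 to 358 FPKM with a median of 260 FPKM in controls. Both ends of the joint range were mutant libraries, and the log2 difference was -0.33 (SE 0.158, limma adjusted p = 0.756).

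The troponin and tropomyosin genes make the calcium switch of the thin filament. Tpm3 (chromosome 3, 90072651 to 90100902), whose tropomyosin lies along actin, had the largest difference over all times, at -0.48 on the log2 scale (SE 0.168, limma adjusted p = 0.756, unadjusted p = 0.00811). It ranged from 53.9 to 239 FPKM with a median of 169 FPKM in mutants, and from 118 to 372 FPKM with a median of 228 FPKM in controls. Tnnt1 (chromosome 7, 4504570 to 4515975), the tropomyosin-binding subunit, ranged from 26.1 to 166 FPKM with a median of 113 FPKM in mutants, and from 58.7 to 229 FPKM with a median of 137 FPKM in controls. Its log2 difference was -0.38 (SE 0.166, limma adjusted p = 0.756). Tpm3 also makes non-muscle tropomyosins from other transcripts, and the deposited value does not separate them.

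The calcium-binding subunit gene Tnnc1 (chromosome 14, 31208312 to 31211711) averaged 158 ± 64.1 FPKM in mutants and 192 ± 67.7 FPKM in controls (SD, n = 16 each). Tnni1 (chromosome 1, 135799421 to 135810989), the inhibitory subunit, averaged 56.8 ± 28.4 FPKM in mutants and 67.4 ± 22.6 FPKM in controls. Their log2 differences were both -0.30 (SE 0.180 and 0.188, limma adjusted p = 0.762 for both), and neither had an unadjusted p under 0.05.

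Calcium uptake and storage genes had smaller differences. Atp2a2 (chromosome 5, 122453513 to 122502225), the pump that returns calcium to the reticulum, averaged 94.5 ± 26.1 FPKM in mutants and 110 ± 22.9 FPKM in controls, with a log2 difference of -0.24 (SE 0.114, limma adjusted p = 0.756). Casq2 (chromosome 3, 102086455 to 102146512), which binds calcium inside the reticulum, averaged 9.11 ± 2.54 FPKM in mutants and 10.9 ± 2.67 FPKM in controls, with a log2 difference of -0.24 (SE 0.0892, limma adjusted p = 0.756). Myoz2 (chromosome 3, 123006206 to 123034987), a Z-disc protein that binds calcineurin, had the smallest difference of the 10, at -0.11 (SE 0.102, limma adjusted p = 0.830), with 148 ± 30.4 FPKM in mutants and 160 ± 32.3 FPKM in controls.

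At ZT12, when lights go off, the differences were wider than over all times, and they were uneven among the members. The median log2 difference was -0.58 over the 10 genes and 0.06 over all genes tested, and 9 of the 10 had lower means in mutants. By adjusted p 0 of the 10 were called in limma, where 0.0251% of all genes were called. At an unadjusted p under 0.05, 4 were lower, namely Tnnt1, Tpm3, Myl2 and Myh7, where 4.57% of all genes were lower at that level.

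Tnnt1 showed the clearest separation at ZT12. It had 123, 77.1, 50.6 and 78.7 FPKM in mutant libraries 0 to 3, against 161, 229, 169 and 172 FPKM in control libraries 0 to 3. Every mutant library lay below every control library, as in 1.73% of all genes tested at this time, and no other member had groups that did not overlap at ZT12. The log2 difference was -1.19 (SE 0.332, limma adjusted p = 0.121), and over 41 alternative settings it ran from -1.503 to -0.99 with adjusted p from 0.0278 to 0.426. The only adjusted p under 0.05 among them came without mutant ZT0 library 2, which leaves the difference as it is and lowers its SE to 0.270. In that setting 2.19% of all genes were called at ZT12.

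The other 3 overlapped between genotypes. Tpm3 had 239, 115, 69.2 and 136 FPKM in mutant libraries 0 to 3, against 224, 372, 260 and 197 FPKM in control libraries (log2 difference -1.01, SE 0.335, limma adjusted p = 0.160). Myh7 had 86.9, 53.9, 18.7 and 39.8 FPKM in mutants, against 67.3, 113, 76.6 and 79.8 FPKM in controls (log2 difference -0.91, SE 0.339, limma adjusted p = 0.191). Myl2 had 623, 367, 217 and 274 FPKM in mutants, against 567, 843, 552 and 433 FPKM in controls (log2 difference -0.77, SE 0.276, limma adjusted p = 0.186). Tnnc1, with an unadjusted p above 0.05, was alike, with 314, 171, 66.1 and 105 FPKM in mutants, against 192, 340, 215 and 195 FPKM in controls. In each of these 4 genes 3 of the 4 mutant libraries lay below the lowest control library and mutant library 0 did not.

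Myl3, Tnni1 and Casq2 were more mixed at ZT12. Myl3 had 507, 335, 116 and 136 FPKM in mutant libraries 0 to 3, against 239, 353, 278 and 238 FPKM in control libraries, so that the highest and the lowest of the 8 were both mutants. Tnni1 had 141, 66.6, 34.6 and 33.3 FPKM in mutants, against 55.3, 103, 67.2 and 65.7 FPKM in controls. Casq2 was the one member with a higher mutant mean, 12.0 ± 3.12 FPKM in mutants and 10.9 ± 1.31 FPKM in controls (SD, n = 4 each), a log2 difference of 0.09 (limma adjusted p = 0.809). Without the 3 libraries low in Tnnt3 this difference was -0.12.

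Mutant ZT12 library 0 held the highest mutant value of that time in all 10 members, and mutant ZT12 library 2 the lowest in 7 of them. Libraries 0 and 1 are both among the 3 with low Tnnt3, and libraries 2 and 3 are not. Without those 3 libraries, a choice made after the values were seen, the median log2 difference at ZT12 was -1.18 over the 10 genes and 0.03 over all genes. Then 10 of 10 had lower means in mutants and 9 had an unadjusted p under 0.05, where 1.61% of all genes were lower at that level, and still 0 were called (the smallest limma adjusted p was 0.0942, for Myl2). This comparison sets 2 mutant against 4 control libraries. It leaves out mutant library 0, the highest mutant of that time in all 10 members, so wider differences were favoured by the choice. The counts without the 3, here and over all times, are therefore no support for a lower level of the members. Over all times without them, 10 of 10 were lower with a median of -0.43, 9 had an unadjusted p under 0.05 where 5.13% of all genes were lower at that level, and 0 were called. At the other times without them, 0 of the 10 were lower at that level at ZT0 (8.29% of all genes), 1 at ZT6 (10.7%) and 1 at ZT18 (3.03%).

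**Figure D2:**
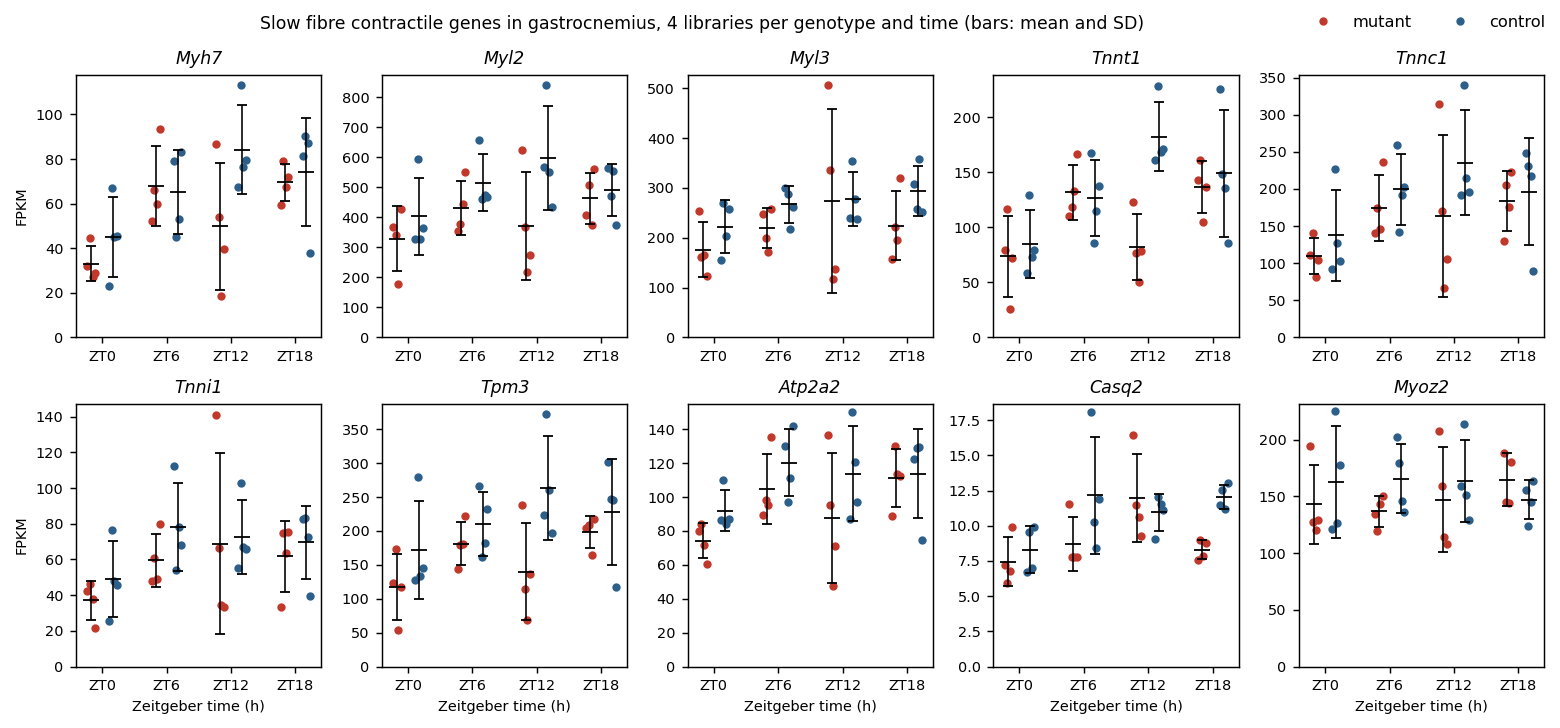
FPKM (y axis, starting at 0) of each of the 10 genes in every library by Zeitgeber time (x axis), mutants in red left of controls in blue, with the mean and SD of each group of 4 in black; within a group the points run from library 0 to library 3. Tnnt1 at ZT12 separates the genotypes, with mutants from 50.6 to 123 FPKM and controls from 161 to 229 FPKM, while 3 mutant libraries low in Tnnt3 are among the points shown.

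At the other times the median difference was smaller. At ZT0, lights on, 10 of 10 had lower mutant means, and the median log2 difference was -0.32 (-0.0098 over all genes), 0 were called by limma where 0.0167% of all genes were, and 0 had an unadjusted p under 0.05 where 4.29% of all genes were lower at that level. Atp2a2 had 80.2, 84.0, 71.9 and 60.6 FPKM in mutant ZT0 libraries, against 86.5, 110, 84.3 and 87.1 FPKM in control ZT0 libraries. Its groups did not overlap, as in 1.45% of all genes in that direction, although the gap between the highest mutant and the lowest control library was narrow. The log2 difference was -0.31 (SE 0.229, limma adjusted p = 0.748). Tnnt1 at ZT0 was at -0.33 with all libraries and at 0.10 without the 3 low in Tnnt3, of which 1 belongs to this group. Without them 9 of the 10 were lower at ZT0, with a median of -0.19.

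At ZT6, in the middle of the light phase, 8 of 10 had lower mutant means, and the median was -0.23 over the 10 and -0.03 over all genes. Myh7 and Tnnt1 were the exceptions, both near 0 with log2 differences of 0.07 and 0.08. By adjusted p 0 were called where 0.0167% of all genes were, and 1 had an unadjusted p under 0.05, where 6.8% of all genes were lower at that level. That gene was Casq2, with 11.6, 7.77, 7.77 and 7.77 FPKM in mutant libraries 0 to 3, against 18.1, 10.3, 8.44 and 11.9 FPKM in control libraries (log2 difference -0.41, SE 0.178, limma adjusted p = 0.471). The groups of no member were apart at ZT6, where 8.73% of all genes had mutants below controls without overlap. Without mutant library 0 the highest mutant value of Casq2 would lie below the lowest control value.

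At ZT18, in the middle of the dark phase, the differences of most members were small, with a median of -0.07 over the 10 and -0.01 over all genes. Of the 10, 9 had lower means in mutants, 0 were called where 0.0167% of all genes were, and 1 had an unadjusted p under 0.05 where 1.93% of all genes were lower at that level. Casq2 was again that gene. It had 7.57, 9.01, 7.86 and 8.75 FPKM in mutants, against 11.5, 12.5, 11.2 and 13.0 FPKM in controls. All 4 mutant libraries lay below all 4 control libraries, as in 1.66% of all genes in that direction, and the log2 difference was -0.49 (SE 0.178, unadjusted p = 0.0103, limma adjusted p = 0.9995). Myoz2 was the member with a higher mutant mean, 164 ± 23.3 FPKM in mutants and 147 ± 17.1 FPKM in controls (log2 difference 0.16, limma adjusted p = 0.9995).

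Whether the genotype difference changed with the time of day was tested by itself. In limma 0 of the 10 genes were called and 0 had an unadjusted p under 0.05, where 0% and 14.1% of all genes were. Tnnt1 came closest, with differences that spanned 1.27 on the log2 scale between times (unadjusted p = 0.0503, limma adjusted p = 0.356). The wider differences at ZT12 are thus not shown to differ from those at other times.

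Within each genotype, most slow fibre genes had their lowest means at lights on. ZT0 held the lowest mean on the log2 scale in 9 of the 10 genes in mutants and in 9 of the 10 in controls. The share of all genes with their lowest mean at ZT0 was not computed. Mutant ZT0 library 2 was the lowest of its group in 6 members and control ZT0 library 0 in 8, so these counts are not of independent genes. The highest mean was at ZT18 in 8 genes and at ZT12 in 2 in mutants, and at ZT12 in 5 genes, at ZT6 in 3 and at ZT18 in 2 in controls. None of these daily patterns passed the test. For a 24 h rhythm, 0 of 10 were called by limma in mutants where 3.92% of all genes were, and 0 of 10 in controls where 5.55% of all genes were. At an unadjusted p under 0.05 the rhythm counts were 1 in mutants, where 14.4% of all genes were at that level, and 2 in controls, where 19.4% were. For any difference between the 4 times, 0 were called in mutants where 3.89% of all genes were, and 0 in controls where 5.7% were. The unadjusted counts for that test were 3 in mutants, where 21.9% of all genes were at that level, and 2 in controls, where 22% were.

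Tnnt1 had the strongest daily profile among controls. It averaged 73.6 ± 37.2 FPKM at ZT0, 132 ± 24.8 FPKM at ZT6, 82.4 ± 30.1 FPKM at ZT12 and 136 ± 23.5 FPKM at ZT18 in mutants (SD, n = 4 each). In controls it averaged 85.2 ± 30.9 FPKM at ZT0, 127 ± 34.7 FPKM at ZT6, 183 ± 31.2 FPKM at ZT12 and 149 ± 58.0 FPKM at ZT18. The mutant mean was lower at ZT12 than at ZT6 and ZT18, and ZT12 was the time of the highest control mean. The 24 h amplitude, from mean to peak, was 0.14 in mutants (limma adjusted p = 0.896) and 0.58 in controls with a fitted peak at 12.6 h (limma adjusted p = 0.0836). The control rhythm passed the threshold with array weights (adjusted p = 0.00868), in a fit of control libraries alone (adjusted p = 0.0387), without mutant ZT0 library 2 (adjusted p = 0.0206) and without the 3 libraries low in Tnnt3 (adjusted p = 0.0145), out of 41 settings in which adjusted p reached up to 0.217. Of all genes, 18.6% were called for the control rhythm with array weights, 10.2% with control libraries alone, 7.94% without mutant ZT0 library 2 and 9.77% without the 3, so that 1 call among 10 members is near the background of these settings or below it.

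Myh7 and Casq2 followed. In mutants Myh7 averaged 33.1 ± 7.93 FPKM at ZT0, 68.0 ± 18.0 FPKM at ZT6, 49.8 ± 28.6 FPKM at ZT12 and 69.5 ± 8.18 FPKM at ZT18, and any difference between these times had an unadjusted p of 0.0106 (limma adjusted p = 0.121). In controls it averaged 45.1 ± 17.9 FPKM at ZT0, 65.1 ± 19.0 FPKM at ZT6, 84.2 ± 20.01 FPKM at ZT12 and 74.2 ± 24.4 FPKM at ZT18, with a 24 h amplitude of 0.48 (unadjusted p = 0.0294, limma adjusted p = 0.195). Casq2 had a 24 h amplitude of 0.30 in mutants with a fitted peak at 11.7 h (unadjusted p = 0.00770, limma adjusted p = 0.124) and of 0.19 in controls with a fitted peak at 12.4 h (limma adjusted p = 0.419). Without mutant ZT0 library 3 the mutant rhythm of Casq2 had an adjusted p of 0.04999, just under the threshold, and an amplitude of 0.37.

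Between libraries of the same group the slow fibre genes were more spread out than most genes. Their within-group SD on the log2 scale was between 0.26 (Casq2) and 0.57 (Tnni1), where the median over all genes tested was 0.18. By this spread the members lay between percentile 80.5 (Casq2) and percentile 97.2 (Tnni1) of all genes tested, and 7 of them at percentile 94.0 or above.

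The spread was largely common to the members. Deviations of each library from the mean of its group were correlated between members over the 32 libraries, with p from permutations within groups (2-sided, 100000 draws) adjusted over the 45 pairs. All 45 correlations were above 0, with a median Pearson r of 0.69 and a median Spearman rho of 0.67. Adjusted p was under 0.05 in 36 pairs for r and in 36 for rho. In 12 pairs p for r was 1e-05, the smallest that these permutations can give. The values of 1 library share its scaling to mapped reads, and after centring each library on its median (20000 draws here and in the other settings) 36 pairs still had an adjusted p under 0.05.

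Tpm3 and Tnnt1, tropomyosin and the troponin subunit that binds it, formed the closest pair, with r = 0.94 and rho = 0.93 (permutation p = 1e-05 each, adjusted p = 3.75e-05 for r and 4.5e-05 for rho). Myh7 and Tnnc1 followed with r = 0.93 and rho = 0.91, then Tnnc1 and Atp2a2 with r = 0.91 and rho = 0.86 and Myh7 and Atp2a2 with r = 0.90 and rho = 0.90. Leaving out the 2 libraries farthest from the median of the first gene of a pair, r was 0.93 for Tnnt1 and Tpm3 and 0.89 for Myh7 and Tnnc1. Over all pairs the median r was then 0.62, and 30 pairs had an adjusted p under 0.05. Leaving out any single library gave 28 to 38 such pairs, with 28 both without mutant ZT12 library 0 and without control ZT0 library 0. Without the 3 libraries low in Tnnt3 there were 29 such pairs and the median r was 0.60.

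Casq2 and Myoz2, whose promoter windows above hold the MEF2 matches, had the lowest correlations with the others, and a relation between the motif and the correlations was not tested. The median r of Casq2 with the 9 other members was 0.34, and 3 of its 9 pairs had an adjusted p under 0.05. The median r of Myoz2 was 0.50, with 7 of 9 pairs under 0.05. Tnnc1 had the highest median, 0.84, followed by Tpm3 with 0.76 and Myh7 with 0.75. Tnnt1 was close to Tpm3 but less close to Myl3 (r = 0.41, rho = 0.43, permutation p = 0.0493 and 0.0296, adjusted p = 0.0600 and 0.0391).

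**Figure D3:**
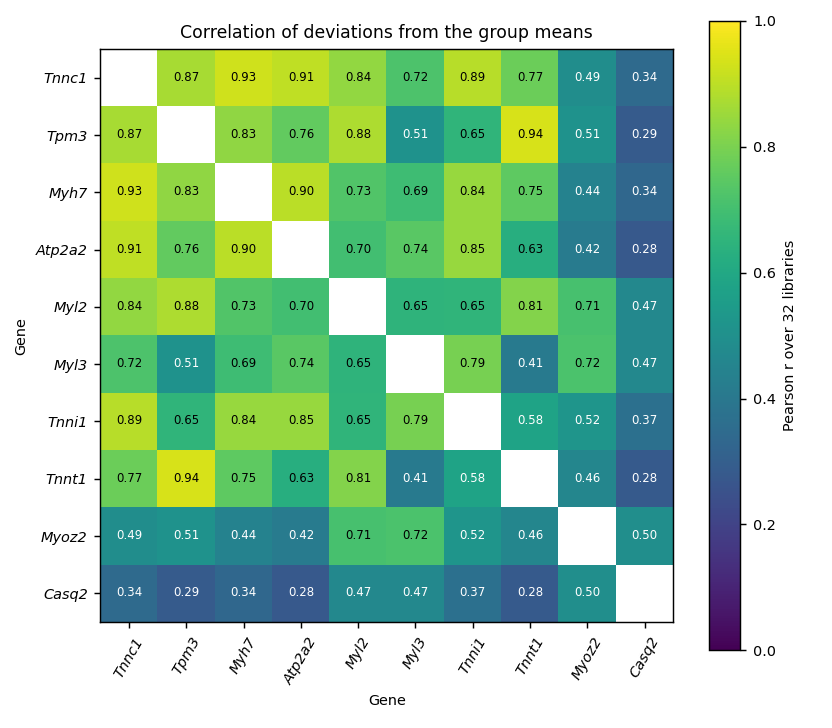
Pearson r between the deviations of each pair of genes from their group means, on log2(FPKM + 1) over 32 libraries; rows and columns are the 10 genes and the colour scale runs from 0 to 1. The top left block around Tnnc1, Tpm3, Myh7 and Atp2a2 is the brightest, and the rows of Myoz2 and Casq2 are the darkest, down to 0.28.

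Single libraries moved most members together. Mutant ZT12 library 0 and control ZT12 library 1 each held the highest value of their group in 10 of 10 members, and mutant ZT6 library 3 and control ZT0 library 1 each in 9. At the low end, control ZT18 library 3 and control ZT0 library 0 each held the lowest value of their group in 8 of 10 members. Casq2 and Myoz2 were the 2 members not lowest in control ZT18 library 3.

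**Figure D4:**
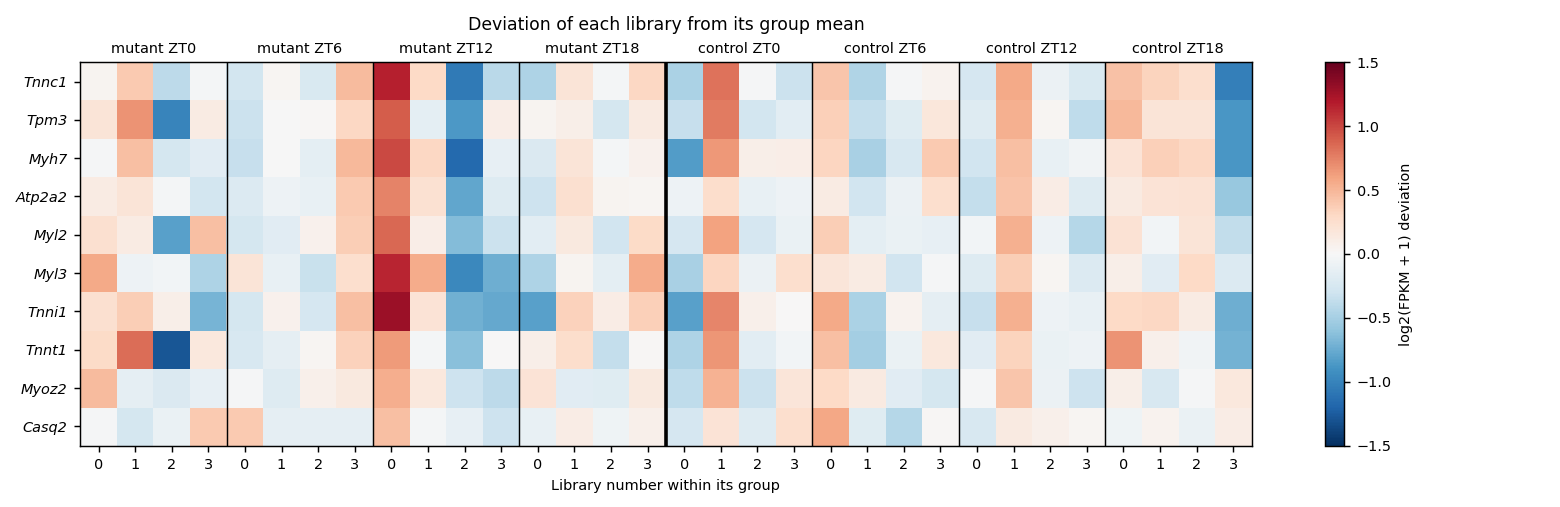
Deviation of each library from its group mean on log2(FPKM + 1) (colour scale, -1.5 to 1.5) for the 10 genes (rows) and 32 libraries (columns, numbered within their group, mutant groups left of control groups). Mutant ZT12 library 0 is red in all 10 rows, and control ZT18 library 3 is the lowest of its group in 8 of the 10 rows.

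Genes outside the set were ranked by the r of their deviations with the mean scaled deviation of the 10 members, over 11965 genes and 32 libraries, as a description. The closest were myosin genes. Myh7b, a myosin heavy chain of slow and extraocular muscle, had r = 0.78 at 1.46 FPKM on average, and Myh6, the alpha heavy chain of the atrium, had r = 0.78 at 10.8 FPKM. Myh6 is nearly identical to Myh7 and lies beside it, so reads could have been assigned to either, and its level is uncertain. Myl6b, a light chain of slow muscle, had r = 0.65. Others among the 10 highest were 5930412G12Rik (0.76), the receptor kinase gene Adrbk1 (0.70), the phosphatase inhibitor gene Ppp1r1a (0.67), the lipid droplet gene Plin4 (0.64), the branched-chain amino acid genes Bcat2 (0.64) and Mccc2 (0.63), and Nfkbib (0.61). The 5 lowest were Npnt, an extracellular matrix protein of the nephronectin type (-0.75), the transporter gene Slc15a5 (-0.71), the acyl-CoA synthetase gene Acsl4 (-0.69), Ttc30a1 (-0.69) and 1700001O22Rik (-0.67). Ranked by Spearman rho, 7 of the 10 highest were the same genes, and the median r over all genes was 0.02.

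Other genes linked to slow fibres had a smaller median difference. Of 12 such genes, all tested, 12 had lower mutant means over all times, the median log2 difference was -0.08 and 0 were called in limma. At an unadjusted p under 0.05, where 3.16% of all genes were lower, 1 of the 12 was lower. That gene was Lmod2, an actin filament nucleator of the sarcomere, at 86.0 ± 33.3 FPKM in mutants and 95.8 ± 28.5 FPKM in controls (log2 difference -0.18, limma adjusted p = 0.756). The myoglobin gene Mb averaged 2882 ± 465 FPKM in mutants and 3072 ± 451 FPKM in controls, a log2 difference of -0.09 (limma adjusted p = 0.817). Of these 12 genes Myh7b and Myl6b had the highest r with the members, and r was -0.15 for Mb and 0.12 for Mybpc1, the slow myosin-binding protein C. Without the 3 libraries low in Tnnt3, 10 of the 12 were lower over all times with a median of -0.09, and 0 were called. In that setting 2 of the 12 were lower at an unadjusted p under 0.05, where 5.13% of all genes were.

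Most fast fibre genes also had lower means in mutants. Of 14, all tested, 13 were lower and 1, Atp2a1, was higher, with a median log2 difference of -0.10, and 0 were called in limma. Tnnt3 had a difference of -0.56 (SE 0.359, limma adjusted p = 0.765), larger than that of any member, and 0.07 without the 3 libraries in which it was low. Those 3 are all mutant and were chosen by low Tnnt3, so this shift was fixed in advance. Without those 3 libraries 9 of the 14 were lower, with a median of -0.02. With all libraries, the 1 with an unadjusted p under 0.05 was the fast calsequestrin gene Casq1, with 1931 ± 220 FPKM in mutants and 2088 ± 255 FPKM in controls (log2 difference -0.11, limma adjusted p = 0.756). At that level 3.16% of all genes were lower. The r of the fast genes' deviations with those of the members ran from -0.18 for Mybpc2 to 0.38 for Atp2a1, with 0.22 for Pvalb and 0.02 for Myh2. Atp2a1 is listed at 0 in 17 libraries. These zeros entered its r and its genotype difference, so neither measures its RNA level. Its place among the higher genes, over all times and at ZT12, is therefore no result about its RNA. At ZT12 the median log2 difference of the fast genes was -0.14 and 10 of 14 were lower in mutants. An unadjusted p under 0.05 was found in 5 of 14, all lower, beside 4 of 10 members and 3 of the 12 other slow genes. At that unadjusted level 4.57% of all genes were lower at ZT12. Without the 3 libraries low in Tnnt3, 0 of the 14 fast genes, 9 of the 10 members and 1 of the 12 other slow genes were lower at that level at ZT12. For all genes that share was 1.61%. These 3 were chosen by low Tnnt3, itself a fast gene, and include mutant ZT12 library 0, the highest of its group in all 10 members. Leaving them out thus itself favours fewer low fast genes and more low members, and cannot show a difference between the lists. Whether the lists differ was not tested.

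Of 18 regulators of fibre type, 17 were tested, 13 were lower and 4 higher in mutants over all times with a median log2 difference of -0.03, and 0 were called, also at an unadjusted p under 0.05. Without the 3 libraries low in Tnnt3, 13 were lower and 4 higher, the median was -0.07 and 0 were called in limma. In that setting 4 of the 17 were lower at an unadjusted p under 0.05, where 5.13% of all genes were. The TEAD factor gene Tead1, whose protein binds MCAT, averaged 39.5 ± 8.47 FPKM in mutants and 43.1 ± 5.67 FPKM in controls (log2 difference -0.14, limma adjusted p = 0.758). Eya1, a transcriptional cofactor of fast fibre programmes, averaged 10.0 ± 1.60 FPKM in mutants and 10.6 ± 1.32 FPKM in controls (log2 difference -0.08, limma adjusted p = 0.762).

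Markers of other cells were measured beside these genes. Over all times 10 of 10 lymphocyte markers and 9 of 9 adipocyte markers had higher means in mutants, with median log2 differences of 0.56 and 0.41, and 0 of either list were called in limma (1 of each with an unadjusted p under 0.05). At that unadjusted level 397 of the 11975 genes tested were higher in mutants. The summed level of the lymphocyte markers ran from 1.35 to 70.4 FPKM with a median of 31.8 FPKM in mutants, and from 1.16 to 81.0 FPKM with a median of 2.53 FPKM in controls. The summed level of the adipocyte markers ran from 450 to 2726 FPKM with a median of 1080 FPKM in mutants, and from 510 to 1610 FPKM with a median of 889 FPKM in controls. The direction was not the same at every time. At ZT0 9 of 10 lymphocyte and 3 of 9 adipocyte markers were lower in mutants, with medians of -0.48 and 0.09. The medians were 1.21 and 0.32 at ZT6, and 1.12 and 0.74 at ZT18. At ZT12 the medians were 0.38 for lymphocyte and 0.44 for adipocyte markers, and -0.14 and -0.29 without the 3 libraries low in Tnnt3. Without these 3, 10 of 10 and 8 of 9 were higher over all times, with medians of 0.48 and 0.28. The r of these markers with the members' deviations was above 0 for every one, 0.31 to 0.46 for lymphocyte and 0.26 (Adig) to 0.56 (Lep) for adipocyte markers, and -0.59 (Col3a1) to -0.38 (Dcn) for the 5 fibroblast markers tested. The part of these cells in the lower slow fibre means was not tested. Of 4 heart markers, Nppa reached at most 0.455 FPKM and Tnni3 at most 0.989 FPKM in any library and were not tested. The other two were lower in mutants and not called, Myh6 with 9.56 ± 4.04 FPKM in mutants and 12.0 ± 4.75 FPKM in controls (log2 difference -0.31), and Tnnt2 with 4.15 ± 2.42 FPKM in mutants and 4.90 ± 1.34 FPKM in controls (log2 difference -0.29; SD, n = 16 each). Fibroblast, smooth muscle, Schwann cell and regenerating fibre markers had 0 calls over all times, with median log2 differences of -0.02, -0.11, -0.15 and 0.02. At ZT12 4.57% of all genes were lower in mutants at an unadjusted p under 0.05. The 4 smooth muscle markers were all lower at that time, with a median of -0.47, and 3 had such a p. The smallest limma adjusted p of these 4 markers was 0.121. Their summed level at ZT12 ran from 68.0 to 102 FPKM in mutants and from 100.03 to 119 FPKM in controls, and their part in the lower slow fibre means at ZT12 was not tested. Without the 3 libraries their median was -0.44. Then 1 of the 4 had an unadjusted p under 0.05, where 1.61% of all genes were lower at that level.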

How the data were processed

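RNA of 32 gastrocnemius samples was measured by stranded mRNA sequencing in 4 pools of 8 samples, per the labels' protocols. The pool of each sample is not given in the sources used here. No correction for an effect of pool was therefore possible. The authors deposited 1 table of FPKM values per gene and library. The build was mm10, per the submitters' processing notes; the aligner, the quantifier and any scaling beyond FPKM are not given in the sources used here. Columns headed WT and TG with a time were taken as the control and mutant groups of that time, and their numbers do not identify mice. Titles in the labels carry a number per sample that nothing ties to the columns or to a mouse, so p-values measure only the spread between these libraries, which may be partly technical.

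The table holds no read counts, so count models were not fitted. In 921 genes with low values, 68.9% of values lay within 0.1 of a whole step, and the steps gave the relative depths. Member positions are 1-based: of the table's starts, 7352 lay 1 base before the RefSeq start and 555 at it, so 1 was added to each start.

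Genes with at least 1 FPKM in at least 4 libraries were tested (11975 of 16634) on log2(FPKM + 1), with 1 mean per group, a trended prior and Benjamini-Hochberg adjustment over all of them, in limma 3.58.1 (R 4.3.3; 24 residual and 3.37 prior degrees of freedom). The genotype difference (mutant minus control) was estimated at each time and as their average, with its dependence on time, and, within a genotype, the 24 h cosine and sine terms and any difference between times. Correlations, shares and motif searches used Python 3.11.15 with numpy 2.4.6 and pandas 2.3.3. The fit was tested on simulated data. Permutations numbered 100000, and 20000 in alternative settings.

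Members, gene lists, pairs and tests were chosen with earlier results of these data known, and the promoters printed were chosen after the values were seen. Named beside the members are their fast counterparts, up to 4 genes of each list by smallest p over all times, and the 10 genes most and 5 least like the members; genes named as called within a list, or beside their r, were added after their values were seen. Alternatives were another pseudocount, 2 other filters, exact zeros as missing, 2 scalings, array weights, smaller fits, and leaving out libraries. The heart marker Mybpc3 was not analysed here, and 1 of the listed regulators is counted but not reported by itself here.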

Additional observations from a re-analysis of the deposited data

Results flagged for a closer look

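In 80 groups of 4 libraries, 1 for each member, genotype and time, the highest or lowest library was checked for a gap to its nearest neighbour that is wide against the range of the group (Dixon's critical value at 95%). By chance about 1 in 20 groups is picked out, and 10 were. Of these 10, 8 were in control groups and 7 of those came from 3 libraries. Control ZT0 library 1 was far above the other 3 for Myl2 (594 FPKM, the others 326 to 363), for Tpm3 (279 FPKM, the others 127 to 145) and for Atp2a2 (110 FPKM, the others 84.3 to 87.1). Control ZT12 library 1 was far above the others for Tnnt1 (229 FPKM, the others 161 to 172) and for Tnnc1 (340 FPKM, the others 192 to 215). Control ZT18 library 3 was far below the others for Myh7 (38.0 FPKM, the others 81.3 to 90.3) and for Atp2a2 (74.8 FPKM, the others 122 to 129). Control ZT6 library 0 was far above the others for Myl2 (658 FPKM, the others 461 to 475). Among mutants, ZT6 library 0 was far above the others for Casq2 (11.6 FPKM, the others 7.77 each) and ZT0 library 0 for Myoz2 (194 FPKM, the others 121 to 129).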

How the results depend on the processing

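Over all times, all 10 members kept a negative difference under all 41 settings, and none was called under any. Counts of called members were 0 in the main setting and reached 1 in a few other settings. For the 24 h rhythm in controls the count was 1 (Tnnt1) with array weights, with control libraries alone, and without the 3 libraries low in Tnnt3, an alternative chosen after seeing the data; for any difference between times in controls it was 1 (Tnnt1) with array weights and without those 3. Shares of all genes called in these settings were 18.6%, 10.2% and 9.77% for the rhythm, and 23.8% and 11.3% for any difference. Leaving out 1 library at a time gave counts of 0 to 1 for the genotype at ZT12, for either time test in mutants and for either in controls: without mutant ZT0 library 2, Tnnt1 was called at ZT12, for the control rhythm and for any difference in controls; without mutant ZT0 library 1, Tnnt1 (adjusted p = 0.0335), and without mutant ZT0 library 3, Casq2 (adjusted p = 0.0491), were called for any difference in mutants, and Casq2 also for the mutant rhythm. Of all genes, 2.19%, 7.94% and 8.76% were called without library 2 in those 3 tests, 5% without library 1, and 8.21% and 3.65% without library 3. The cause was not tested.

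Small differences changed sign. At ZT18, Atp2a2 was at 0.0072 with median centring; Myh7 was at 0.0070 and Atp2a2 at 0.0021 with quantile normalisation; and with array weights Tnni1 was at 0.13, Tnnc1 at 0.24, Myh7 at 0.14, Tpm3 at 0.0039, Myl2 at 0.0045, Atp2a2 at 0.15 and Tnnt1 at 0.088. Tnnt1 at ZT0 was at 0.017 with array weights and 0.10 without the 3 libraries, and Casq2 at ZT12 at -0.12 without them. Leaving out 1 library at a time, the ZT18 ranges were -0.20 to 0.091 for Atp2a2, -0.31 to 0.10 for Myh7, -0.21 to 0.011 for Myl2, -0.36 to 0.13 for Tnnc1, -0.42 to 0.091 for Tnni1, -0.30 to 0.16 for Tnnt1 and -0.41 to 0.037 for Tpm3. At ZT12 they were -0.057 to 0.20 for Casq2 and -0.64 to 0.061 for Myl3, at ZT6 -0.090 to 0.21 for Myh7 and -0.089 to 0.23 for Tnnt1, and at ZT0 -0.32 to 0.0064 for Myoz2, -0.42 to 0.013 for Tnnc1 and -0.60 to 0.10 for Tnnt1. The share of Atp2a2, averaged over times as mutant minus control, was 0.0056 percentage points in libraries with Atp2a1 above 0 and -6.26 with pseudocount 1 in all libraries, where an exact 0 of Atp2a1 takes the share towards 100%.

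No paired analysis was possible because the numbers in the labels and columns do not link mice between groups. With 4 libraries a group and a spread above that of most genes, a difference that missed the threshold is not shown to be absent. Array weights downweight libraries, and leaving libraries out lowers the number behind a mean to as few as 2.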

Other observations

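Some genes beside the members did pass the time tests in limma. Of the 12 other slow genes, 1 had a called 24 h rhythm in mutants, where 3.92% of all genes had one. In controls 1 of the 12 was called, where 5.55% of all genes were. Lmod2, an actin nucleator of the sarcomere counted here with the slow genes, had a 24 h rhythm in both genotypes, with a fitted peak at 18.2 h in mutants (amplitude 0.56 on the log2 scale, adjusted p = 0.000529) and at 18.7 h in controls (amplitude 0.49, adjusted p = 0.00175). It averaged 73.3 ± 10.8 FPKM at ZT0, 62.2 ± 3.88 FPKM at ZT6, 71.4 ± 14.9 FPKM at ZT12 and 137 ± 21.4 FPKM at ZT18 in mutants (SD, n = 4 each). In controls it averaged 104 ± 20.1 FPKM at ZT0, 62.6 ± 4.96 FPKM at ZT6, 92.5 ± 23.9 FPKM at ZT12 and 125 ± 19.6 FPKM at ZT18. Its deviations had r = 0.11 with those of the members.

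Of 17 tested regulators of fibre type, 1 had a called 24 h rhythm in mutants, where 3.92% of all genes had one, and 3 in controls, where 5.55% had one. Eya1, a transcriptional cofactor of fast fibre programmes, was called in both, with a fitted peak at 3.78 h in mutants (amplitude 0.22, adjusted p = 0.00785) and at 4.22 h in controls (amplitude 0.17, adjusted p = 0.0420). Hdac4, a deacetylase that represses MEF2, was also called in controls (amplitude 0.22, adjusted p = 0.0431), with 0.13 in mutants (adjusted p = 0.459). For any difference between times, 2 of the 17 were called in mutants, where 3.89% of all genes were, and 2 in controls, where 5.7% were. Tbx15, a factor of fast glycolytic fibres, differed between times in both genotypes (adjusted p = 0.0491 in mutants and 0.0412 in controls), with its lowest mean at ZT6 in mutants, 73.6 ± 5.38 FPKM, and at ZT12 in controls, 70.5 ± 8.77 FPKM (n = 4 each). Its genotype difference by time was not called (limma adjusted p = 0.233).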
